A study of Mus musculus with 10 samples.

Results

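The 10 libraries of this series were divided by the level of Ttr, the transcript of transthyretin, which choroid plexus epithelium makes in very large amounts. The sides were selected on measured values: 7 of the 10 libraries had 100 TPM or more and 3 had under 20 TPM. TPM is the abundance of a transcript per length, scaled to the same total in each library. They are called high-Ttr libraries (WT 1, WT 2, WT 3, WT 5, cKO 1, cKO 3 and cKO 5) and low-Ttr libraries (WT 4, cKO 2 and cKO 4). Just inside the upper limit lay cKO 3 with 109.9 TPM, and just under the lower one lay WT 4 with 11.31 TPM. No library lay between.

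Each library is polyadenylated RNA from the cortex of 1 mouse embryo at embryonic day 12. All 10 animals carry Emx1-Cre, which drives recombination in progenitors of the dorsal telencephalon and leaves other cells of the tissue uncut. The 5 WT animals have unmodified Zbtb7a (+/+) and the 5 cKO animals have floxed Zbtb7a. WT 1, WT 2, cKO 1, cKO 2 and cKO 3 came from litter 1, WT 3, WT 4 and cKO 4 from litter 3, and WT 5 and cKO 5 from litter 5, where litter is the labelled batch.

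The choroid plexus is the secretory epithelium of the brain ventricles that produces cerebrospinal fluid. In the telencephalon it arises at the dorsal midline, next to the cortical hem, a signalling centre that releases WNT and BMP ligands. Its epithelial cells form tight junctions, carry ion and folate transporters, and bear tufts of motile cilia built by the multiciliation programme. In bulk tissue, fewer cells of a type and less RNA per cell cannot be told apart.

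Ttr and 4 other choroid markers were read in every library. Ttr was 110 TPM at the lowest, 196 at the median and 689 at the highest of the high-Ttr libraries, against 11.3 in WT 4, 3.04 in cKO 4 and a listed 0 in cKO 2. Clic6, a chloride channel family gene of the epithelium, was 9.42, 13.3 and 25.0 TPM at the lowest, median and highest of the high-Ttr libraries. It was 1.98 in WT 4, 1.05 in cKO 4 and 0.02 in cKO 2. The order of the low-Ttr libraries was thus the same for both genes.

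Folr1, the folate receptor that moves folate into the cerebrospinal fluid, was 4.24, 7.46 and 23.0 TPM at the lowest, median and highest of the high-Ttr libraries, and 3.11 in WT 4, 3.60 in cKO 4 and 0.34 in cKO 2. Otx2, a homeodomain factor needed for choroid plexus formation, was 10.9, 13.9 and 33.4 TPM in the high-Ttr libraries, and 7.97 in WT 4, 10.3 in cKO 4 and 1.32 in cKO 2. Htr2c, a serotonin receptor, was 0.69, 1.99 and 4.36 TPM against 0.34, 0.04 and a listed 0 in the same order. For all 5 markers the sides did not overlap, which for Ttr was fixed by the division. Over all 14521 genes tested below, 167 (1.15%) were higher in this way, and no support is drawn from the count.

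The label of the low side as tissue without choroid plexus therefore held for cKO 2 and went partly against WT 4 and cKO 4. In those libraries Ttr, Clic6 and Htr2c were low, while Otx2 and Folr1 lay close under the lowest high-Ttr library. That library was WT 1, from litter 1. In their own litter, WT 3 had 20.8 TPM of Otx2 and 14.8 of Folr1, well above both. The high-minus-low differences on the log2(TPM + 1) scale, fitted in limma with litter as a term, were 6.29 for Ttr (SE 0.54), 3.37 for Clic6 (SE 0.25), 2.20 for Folr1 (SE 0.36), 1.89 for Otx2 (SE 0.32) and 1.37 for Htr2c (SE 0.27). They are descriptions, since these libraries were divided by Ttr.

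**Figure D1:**
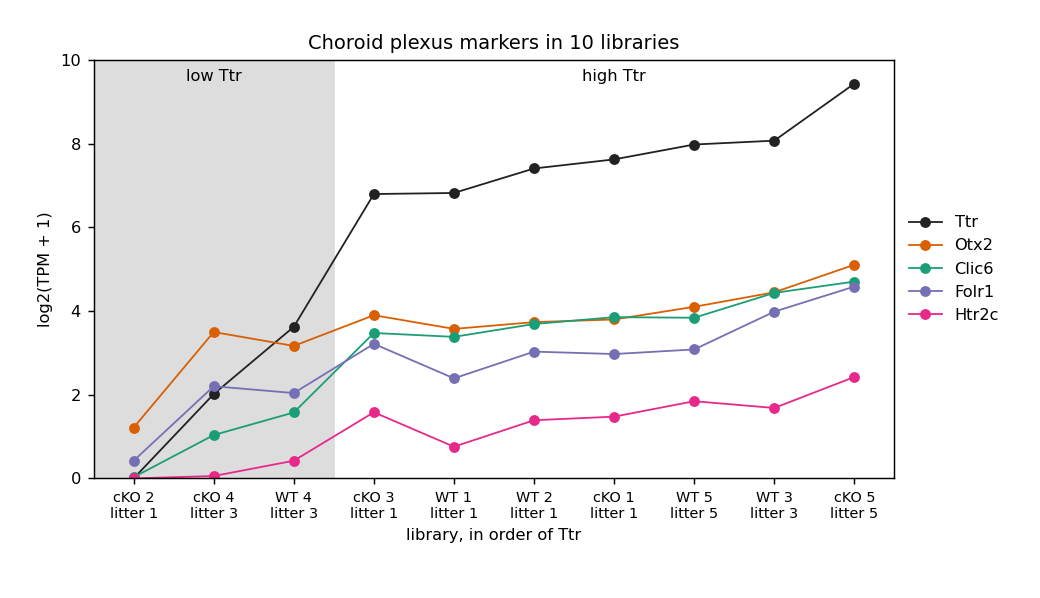
Level of 5 choroid plexus markers, as log2(TPM + 1), in each of the 10 libraries, which stand in order of Ttr with the litter under each name. Each point is 1 library and the shaded area holds the 3 low-Ttr libraries; Ttr spans 0 to 689 TPM, and Otx2 stays at 7.97 and 10.3 TPM in WT 4 and cKO 4.

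The division rests on 2 litters. In litter 1 it sets 4 high-Ttr libraries against cKO 2 alone, and in litter 3 it sets WT 3 alone against WT 4 and cKO 4. Both libraries of litter 5 were high-Ttr and add nothing to a difference within litters. Within litter 1 the Ttr difference was 7.16 on the log2 scale and within litter 3 it was 5.25. The same values were 3.57 and 3.13 for Clic6, 2.48 and 1.86 for Folr1, 2.54 and 1.12 for Otx2, and 1.30 and 1.44 for Htr2c.

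Over all 14521 genes with at least 1 TPM in at least 3 libraries, the median high-minus-low difference was 0.01. Past an adjusted p of 0.05 in the limma fit were 5 genes with higher levels in the high-Ttr libraries (0.0344% of those tested) and 1 with a lower level (0.00689%). Every high-Ttr library lay above every low-Ttr library for 167 genes (1.15%) and below for 47 (0.324%). Nothing is read from these shares, because Ttr in the same libraries set the sides. A gene that is high only in the high-Ttr libraries also passed the filter through them, so counts over tested members are no support. Without cKO 2 the limma fit called 2 genes, and none of them was among the 6.

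The 5 higher genes were Ttr, Clic6, Trpm3, Sulf1 and Deup1. Trpm3, a calcium-permeable channel gene, was 4.63, 6.18 and 13.8 TPM at the lowest, median and highest of the high-Ttr libraries, and 1.18 in WT 4, 0.32 in cKO 2 and 0.85 in cKO 4. Its difference was 2.15 (SE 0.24). Sulf1, which encodes a sulfatase that trims heparan sulfate, was 28.2, 39.2 and 86.4 TPM in the high-Ttr libraries, against 14.2, 1.22 and 12.5 in WT 4, cKO 2 and cKO 4. For both genes the sides were apart and cKO 2 was the lowest library. The 1 lower gene was Zfp969, a zinc finger gene, and there the sides overlapped: it was 18.5, 33.6 and 36.4 TPM in WT 4, cKO 2 and cKO 4, 27.7 in WT 5 and 10.7 in cKO 5, 1.56 in WT 2, and a listed 0 in the other 4 libraries.

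Genes for ion transport in the epithelium followed the markers in part. Of 17 tested members of the channel and transporter list, 14 had a difference above 0 and 6 did not overlap, with a median of 0.30. Over all tested genes 53.47% were above 0, 22.69% were above 0 within both litters and 1.15% were without overlap in the higher direction, and the counts of each list stand beside these shares. Kcne2, a potassium channel subunit, was 2.41, 7.29 and 21.0 TPM at the lowest, median and highest of the high-Ttr libraries, and 0.43 in WT 4, 0.31 in cKO 4 and a listed 0 in cKO 2. Kcnj13, an inward rectifier potassium channel, had a smaller difference of 0.99 (SE 0.33). Aqp1, the water channel of the apical membrane, overlapped between the sides: it was 17.5 TPM in WT 3 and 1.37 to 4.01 in the other libraries.

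Secreted proteins and carriers gave 9 of 12 tested members above 0, 3 of them without overlap (all tested genes: 53.47% and 1.15%), with a median of 0.40. Ttr, which set the sides, is in both counts by construction. Among the other members Wfikkn2, a secreted protease inhibitor family gene, had a difference of 1.14 (SE 0.29). Igf2, a growth factor that choroid plexus releases into the fluid, was 304 TPM in WT 3, 176 in WT 4 and 220 in cKO 4, and 96.3 to 139 in the libraries of the other litters. Its level thus set litter 3 apart from the other litters, and the sides overlapped. With litter as a term its difference was 0.38 (SE 0.14), with 0.19 within litter 1 and 0.62 within litter 3. The receptor and other epithelial list had all 10 tested members above 0 and 3 without overlap (all tested genes: 53.47% and 1.15%), with a median of 0.71. Cldn1, a tight junction claudin, was among the 3, with a difference of 1.16 (SE 0.26).

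**Figure D2:**
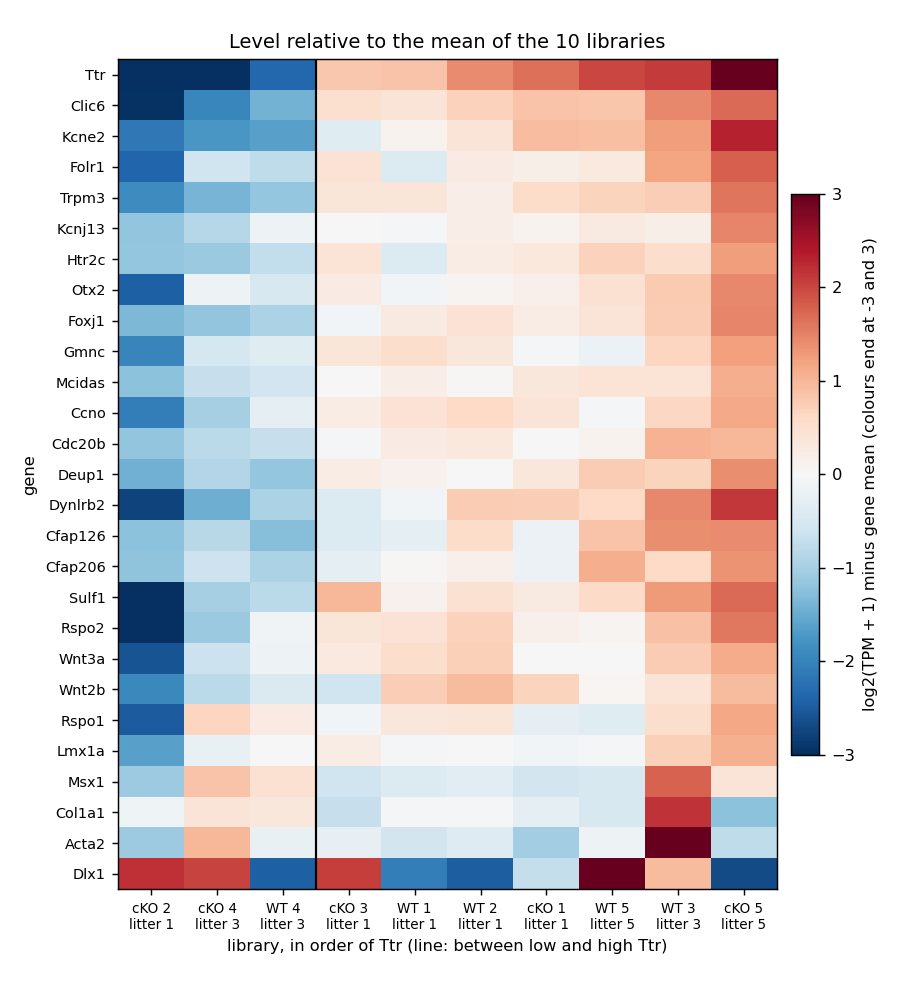
Level of 27 named genes in each library, as log2(TPM + 1) minus the mean of the gene over the 10 libraries, in order of Ttr. Red is above and blue below the mean, and the black line divides low-Ttr from high-Ttr libraries; cKO 2 is below the mean for the hem genes, while Rspo1 and Msx1 are above it in WT 4 and cKO 4.

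Motile cilia genes had the highest list median, 0.98. Of 41 members with values, 28 were tested. Of these, 27 had a difference above 0 and 16 did not overlap (all tested genes: 53.47% and 1.15%). Within both litters 22 were above 0, where over all tested genes 3295 of 14521 were. Foxj1, the master regulator of motile cilia, was 13.8, 19.7 and 42.5 TPM at the lowest, median and highest of the high-Ttr libraries and 7.16, 5.21 and 5.91 in WT 4, cKO 2 and cKO 4. Its difference was 1.68 (SE 0.25). It was present in all 3 low-Ttr libraries.

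Genes that start multiciliation were lowest in cKO 2. Gmnc, which encodes geminin coiled-coil protein 1 at the top of that programme, was 4.04, 6.34 and 12.4 TPM in the high-Ttr libraries and 3.43, 0.46 and 2.99 in WT 4, cKO 2 and cKO 4. Mcidas, the multicilin gene that acts after it, was 2.44, 3.30 and 6.23 TPM against 1.30, 0.44 and 1.12. Deup1, needed for the deuterosomes that multiply centrioles, was 1.71, 2.43 and 6.19 TPM against 0.23, a listed 0 and 0.48. Each of these genes was without overlap between the sides.

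Ccno, a cyclin-like gene of centriole amplification, had a difference of 1.93 (SE 0.35), and Dynlrb2, a dynein light chain gene, had 2.85 (SE 0.43). Ccno and Mcidas are neighbours on chromosome 13 with Cdc20b, whose difference was 1.53 (SE 0.26). Mcidas and Cdc20b were named after their values were seen.

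The promoters of 3 of these genes are shown because members of the list moved together and their windows hold the core of the RFX motif, bound by factors that act in ciliated cells. Each window is 300 bases around the start, from RefSeq on GRCm38.p6. Deup1 is at chr9:15627797-15628096 on the minus strand, Ccno at chr13:112987552-112987851 and Mcidas at chr13:112993618-112993917, both on the plus strand. Capitals mark GTTGCC or its reverse complement.
Deup1: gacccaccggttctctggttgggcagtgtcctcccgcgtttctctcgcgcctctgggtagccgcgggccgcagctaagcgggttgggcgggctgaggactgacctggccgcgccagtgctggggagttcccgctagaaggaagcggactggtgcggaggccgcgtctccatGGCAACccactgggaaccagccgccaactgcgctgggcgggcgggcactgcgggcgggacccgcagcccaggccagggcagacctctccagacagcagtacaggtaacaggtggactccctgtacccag
Ccno: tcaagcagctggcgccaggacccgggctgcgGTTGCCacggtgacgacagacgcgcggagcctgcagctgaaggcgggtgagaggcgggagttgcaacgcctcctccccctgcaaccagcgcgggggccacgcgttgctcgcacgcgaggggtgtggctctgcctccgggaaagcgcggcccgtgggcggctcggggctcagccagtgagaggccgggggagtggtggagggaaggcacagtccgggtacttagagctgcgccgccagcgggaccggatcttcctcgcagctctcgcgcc
Mcidas: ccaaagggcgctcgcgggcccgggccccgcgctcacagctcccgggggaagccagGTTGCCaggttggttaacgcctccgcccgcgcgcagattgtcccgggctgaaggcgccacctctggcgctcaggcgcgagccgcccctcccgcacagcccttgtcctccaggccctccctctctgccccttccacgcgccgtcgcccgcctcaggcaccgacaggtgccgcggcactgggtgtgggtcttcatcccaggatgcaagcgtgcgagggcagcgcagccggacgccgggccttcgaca
GTTGCC, searched on both strands, was in 12.5% of all 32851 promoters and in 52.3% of the 44 promoters matched to the cilia list, which cover 36 of its 41 genes. In the 66 promoters of the choroid lists it was in 15.2%. TAATCC, the core bound by OTX2, was in 7.06% of all promoters, 9.09% of the cilia list and 6.06% of the choroid lists, and GTAAACA, a forkhead core, was in 3.65%, 4.55% and 4.55%. Matches were counted for each motif alone, whether or not they overlapped another. A match is a string of letters and not a measured site.

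The cortical hem list had all 17 tested members above 0, 14 of them within both litters, 4 without overlap and a median of 0.91, where over all tested genes 53.47% were above 0, 22.69% within both litters and 1.15% without overlap. Rspo2, a WNT co-agonist, was 19.1, 24.4 and 55.4 TPM at the lowest, median and highest of the high-Ttr libraries, and 16.5 in WT 4, 1.35 in cKO 2 and 7.73 in cKO 4. Wnt3a, the WNT ligand of the hem, was 6.47, 9.93 and 15.4 TPM against 5.80, 0.27 and 3.86. In both genes cKO 2 was the lowest by far, and WT 4 lay close under the high-Ttr libraries.

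Rspo1, another WNT co-agonist, overlapped: it was 44.6 TPM in WT 4, 59.4 in cKO 4 and 5.76 in cKO 2, with 28.7 to 84.9 in the high-Ttr libraries. Its difference was 2.58 within litter 1 and 0.07 within litter 3. Lmx1a, a roof plate and hem factor, was 6.78 in WT 4, 5.68 in cKO 4 and 1.53 in cKO 2, with 6.34 to 15.4 in the high-Ttr libraries. The low-Ttr libraries thus were not alike. The summed level of the hem list was 133 TPM in cKO 2, 276 in WT 4 and 291 in cKO 4, against 227 to 487 in the high-Ttr libraries, although Rspo2 and Wnt3a were low in cKO 4 too. The summed level of the secreted protein list, Ttr included, was 606 TPM in cKO 2, 929 in WT 4 and 1026 in cKO 4, against 770 to 1638. By these sums only cKO 2 lay below the high-Ttr range, which spans litters. Within litter 3, WT 3 lay above WT 4 and cKO 4 in both, with 358 TPM for the hem and 1378 for secreted proteins. Other choroid sums set WT 4 apart in part. For channels and transporters WT 4 had 175 TPM and cKO 4 205, against 188 to 260 in the high-Ttr libraries. For choroid and roof plate transcription factors they had 506 and 574, against 553 to 659. For receptors and other epithelial genes both lay inside the range, at 33.5 and 45.0 against 32.2 to 60.5. The motile cilia sum was below the high-Ttr range in every low-Ttr library. It was 105 TPM in WT 4, 103 in cKO 2 and 117 in cKO 4, against 185 to 293.

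**Figure D3:**
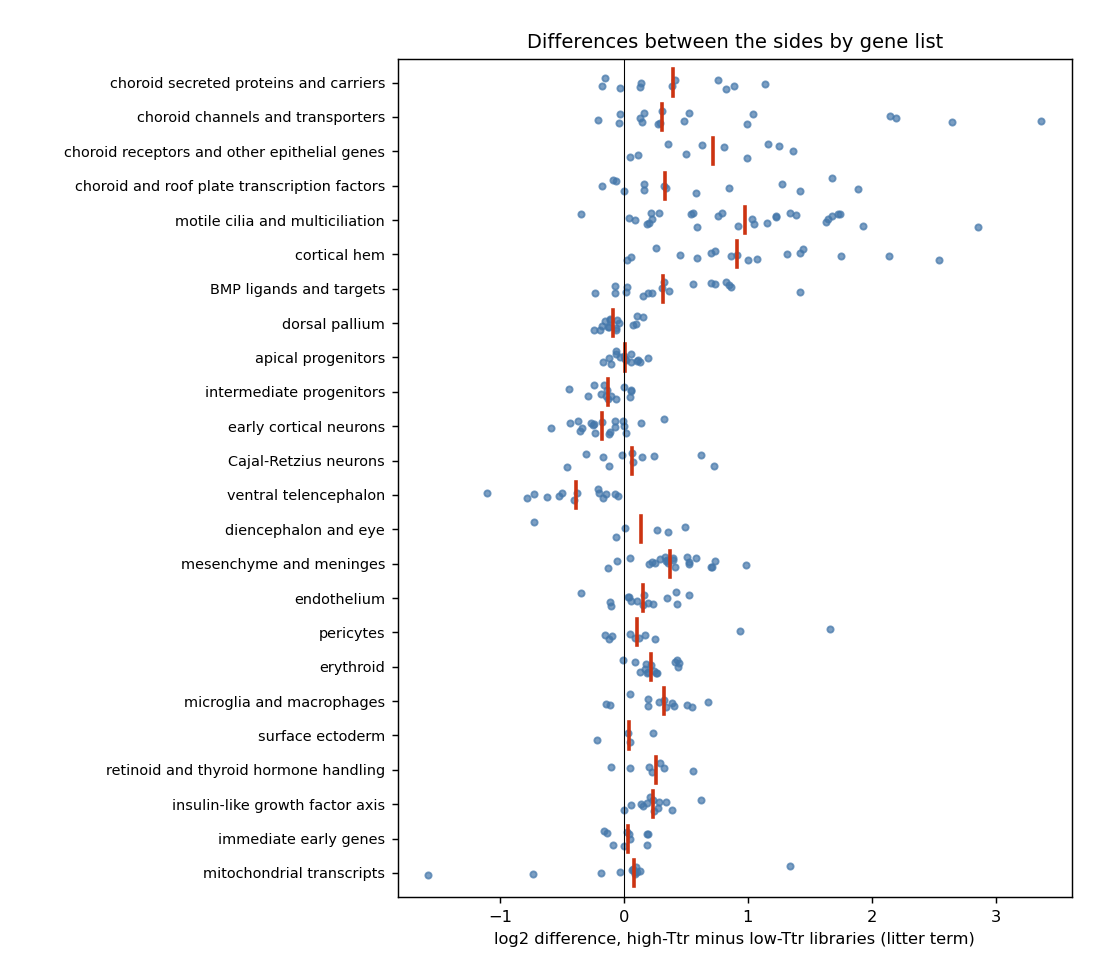
High-minus-low difference on the log2(TPM + 1) scale, with litter as a term, for the tested members of each gene list. Each point is 1 gene, and the red mark is the list median, which is 0.98 for motile cilia, 0.91 for cortical hem and -0.39 for ventral telencephalon. Ttr is left out of the points but counts in the medians of the lists that hold it.

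Cortical cell types had medians from -0.18 to 0.01, where that of all tested genes was 0.01. The median was -0.09 for 16 dorsal pallium genes, 0.01 for 15 apical progenitor genes, -0.13 for 14 intermediate progenitor genes and -0.18 for 19 genes of early neurons. Below 0 were 12, 6, 11 and 15 of them in the same order, where over all tested genes 6757 of 14521 were. Within both litters 4, 1, 8 and 9 were below 0, against 2775 of 14521. None of these members was without overlap, where over all tested genes 1.15% were in the higher and 0.324% in the lower direction. With shares this small and few genes, nothing is read from that.

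Other tissue at the edge of the cortex varied between libraries. Ventral telencephalon genes were below 0 in all 14 tested members (all tested genes: 6757 of 14521). Yet their median was -0.86 within litter 1 and 0.18 within litter 3. Dlx1, a factor of ventral progenitors and interneurons, was 33.6 TPM in cKO 2, 29.9 in cKO 4 and 0.37 in WT 4, and 0.18 to 65.3 in the high-Ttr libraries. Mesenchyme and meninges genes were above 0 in 20 of 22 members (all tested genes: 53.47%), with a median of 0.05 within litter 1 and 0.79 within litter 3. Their summed level was 464 to 1463 TPM in the high-Ttr and 495 to 876 in the low-Ttr libraries. Col1a1, a fibrillar collagen gene, was 199 TPM in WT 3 and 17.9 to 57.2 elsewhere, and Acta2, smooth muscle actin, was 42.6 in WT 3 and 0.92 to 7.17 elsewhere. The part of such tissue in the high-Ttr values of litter 3, which come from WT 3 alone, was not tested.

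Set against each other over the tested genes, the litter 1 and litter 3 differences had a Pearson r of 0.01 and a Spearman rho of -0.10. These contrasts share no library, and genes are not independent replicates. Choroid, cilia and hem genes stood above 0 on both axes in most cases, while mesenchyme genes were spread along the axis of litter 3 and ventral genes along that of litter 1.

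**Figure D4:**
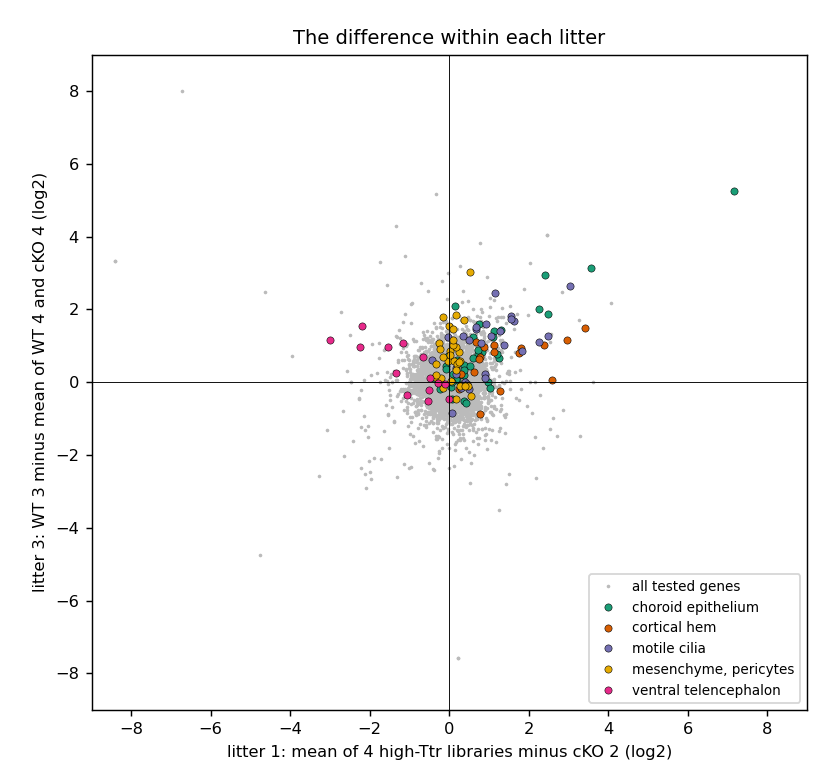
High-minus-low difference within litter 1 (horizontal) against that within litter 3 (vertical), both as log2(TPM + 1) differences, for 14521 genes in grey and 5 groups of listed genes in colour. Ttr is at 7.16 and 5.25, and the grey cloud has a Pearson r of 0.01.

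The lower direction held few genes of known role. Chchd10, which encodes a mitochondrial protein, was 6.33, 8.59 and 11.8 TPM at the lowest, median and highest of the high-Ttr libraries and 12.1, 14.9 and 16.4 in WT 4, cKO 2 and cKO 4, so the sides did not overlap. Zfp950, a zinc finger gene, was 42.9 TPM in cKO 2 and 5.24 to 9.54 in the others, so 1 library carried its difference.

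Genotype was not used to divide the libraries and was tested. The high side held 4 WT and 3 cKO libraries and the low side 1 WT and 2 cKO (two-sided Fisher's exact test, p = 1.0). Ttr was lower in cKO by 1.61 on the mean log2 scale (difference -1.61; two-sided exact permutation test, p = 0.4206, adjusted p = 0.8492 over 5 markers, n = 5 each). Mean TPM went the other way, 162 ± 105 in WT and 199.6 ± 286 in cKO (SD, n = 5). In limma with litter the Ttr difference was -1.94, with a 95% interval of -5.32 to 1.44, and without cKO 2 it was -0.80. The other 4 markers had exact permutation p-values of 0.4603 to 0.8492. The intervals are wide, so a difference in choroid markers between genotypes was not detectable in these animals.

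Over all genes, 5 passed between cKO and WT (0.0344%), and none belongs to a list described here. With the Ttr side as a term in limma, 3 genes passed. The predicted genes Gm3055 (limma log2 difference -1.07, adjusted p = 0.0813) and Gm5597 (-1.47, adjusted p = 0.134) no longer did. Without the side term their differences were close to these, -1.11 and -1.49. Both genes also failed to pass when WT 1 or cKO 1 was left out. Zbtb7a, the targeted gene, was 7.20 to 12.5 TPM in WT and at most 5.96 in cKO, so the genotypes did not overlap (limma log2 difference -0.99, adjusted p = 0.665). Without cKO 4 it passed in limma (difference -1.27, adjusted p = 0.0245). Exons outside the deleted part count towards these levels.

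Litter differences were much broader than those between the sides. Between litter 3 and litter 1, limma called 821 genes higher (5.65%) and 3535 lower (24.3%), with a median difference of -0.16. None of the 5 markers was among them, and 14 of 15 erythroid and 14 of 22 mesenchyme genes were called higher. Globin transcripts were 4.17% to 5.57% of TPM in litter 3 and 1.73% to 2.64% elsewhere.

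Within the 7 high-Ttr libraries the other markers were set against Ttr on the log2(TPM + 1) scale. The libraries were chosen by Ttr, so these values are a description with no test. Pearson's r was 0.94 for Clic6, 0.93 for Otx2, 0.87 for Htr2c and 0.86 for Folr1, and Spearman's rho was 0.93, 0.79, 0.75 and 0.61 in the same order. With litter means taken out, an alternative chosen after seeing the data that leaves 6 libraries because WT 3 is alone in its litter, r was 0.99 for Clic6, 0.80 for Otx2, 0.63 for Htr2c and 0.79 for Folr1. Over the 4 of litter 1 alone, r was 0.97 for Clic6, but 0.14 for Otx2, 0.40 for Htr2c and 0.28 for Folr1.

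Among the 4 high-Ttr libraries of litter 1, cKO 3 had the lowest Ttr, 109.9 TPM, and the highest Folr1 (8.28), Htr2c (1.99) and Otx2 (13.91). It thus went against the pooled order for these 3 genes, and Clic6 did not show this. Without cKO 5 and cKO 3, farthest from the median of Ttr, r was 0.87 for Clic6, 0.89 for Otx2, 0.97 for Htr2c and 0.85 for Folr1 over 5 libraries, a choice that leaves out the library that went against the order.

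**Figure D5:**
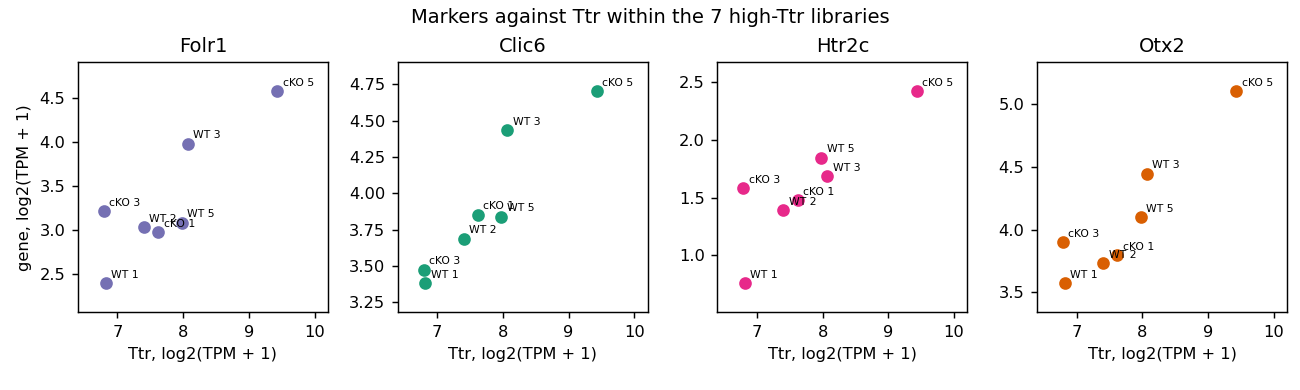
Folr1, Clic6, Htr2c and Otx2 (vertical axes) against Ttr (horizontal axis), all as log2(TPM + 1), in the 7 high-Ttr libraries. Each point is 1 library; cKO 5, with 689 TPM of Ttr, is highest in all 4 panels.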

How the data were processed

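Polyadenylated RNA of 10 embryonic cortices was sequenced, 1 library per animal. The authors deposited TPM values for 24814 genes, and each column sums to 1000000 within rounding. The submitters' processing notes name cutadapt, featureCounts, DESeq2 and the build mm10. The aligner and the tool behind the TPM are not given in the sources used here. TPM keeps no read depth, so depth is unknown and no count model was used. The authors also deposited a table of cKO against WT with log2 fold changes, a test score and adjusted p-values, which was not used here, nor were 5 value columns with no library name. The log2 base of that deposited table is not stated.

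Identifiers were matched to GENCODE M21 (24774 matched), and 26 symbols stored as dates were restored. Genes with at least 1 TPM in at least 3 libraries (14521) were transformed as log2(TPM + 1), which understates changes of low genes, and fitted in limma 3.58.1 (R 4.3.3) with litter and side, or litter and genotype, with a trend and Benjamini-Hochberg adjustment. Exact permutation and Fisher tests used scipy 1.17.1. The fits were tested on simulated data. Sides, members, gene lists and motifs were chosen with earlier results of these data known.

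Named genes are the 5 markers, Zbtb7a, up to 12 called genes per direction with the same sign in litters 1 and 3 (filled to 10 by the smallest p), the members of each list with the largest difference, and up to 6 genes called between genotypes. Mcidas, Cdc20b and Sulf2 were added after their values were seen. Of the listed genes, Tmem212, Ccdc153, Sntn, Tac2 and Ahsp were not analysed here, and some genes that the rule takes are not reported here. Nothing says how embryos were sampled within a litter, so p-values measure the spread between these animals.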

Additional observations from a re-analysis of the deposited data

Results flagged for a closer look

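Values of 194 groups of 5 libraries (each named gene in WT and in cKO) were searched for a library far from the other 4, by Dixon's criterion at the 95% level. It marked 35. Chance marks about 1 in 20 where groups are independent and not selected. Most of these genes were named for their differences, many moved together and each group mixes litters. The count is therefore not compared with that rate.

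In WT 3 the levels far above the other WT libraries were 17.45 TPM for Aqp1, 26.04 for Msx2, 11.79 for Lmx1a, 113.98 for Msx1, 7.06 for Lmx1b, 4.42 for Ndnf and 4.74 for Irx3. The same library stood apart with 14.77 TPM of Ogn, 198.56 of Col1a1, 13.6 of Col6a3, 205.33 of Col1a2, 42.6 of Acta2 and 54.02 of Tagln. It also had 13.05 TPM of Tmem119 and 12.63 of Igf1.

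In cKO 4, from the same litter, the levels far above the other cKO libraries were 220.22 TPM for Igf2, 3.1 for Lmx1b, 7.19 for Irx3, 7.17 for Acta2, 28.13 for Tagln, 7.42 for Tmem119, 5.59 for Wnt6 and 8.95 for Igf1. In cKO 5 they were 689.22 TPM for Ttr, 4.94 for Cfap206, 8.35 for 1500015O10Rik, 5.29 for Kcnj13, 10.81 for Calml4 and 15.2 for Cfap126. In cKO 2 they were 5.46 TPM for Gm20501 and 42.94 for Zfp950, and Sulf2 was far below the other cKO libraries at 29.56. In WT 5 they were 84.54 TPM for Gap43, 65.31 for Dlx1 and 48.3 for Dlx2.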

How the results depend on the processing

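The side fit called 6 genes. It called 1 with no filter, 3 each with quantile normalisation, with no litter term or with embryo sex as a term, 17 with log2(Ttr + 1) in place of the side (Ttr on its own value included, a call fixed by construction), and 2 without litter 1 (chosen after seeing the data). Leaving out 1 library gave 2 to 11, with 2 without cKO 2. Genes without overlap were 167 higher and 47 lower. They were 87 higher under a filter of 5 TPM, and 89 lower with no filter and 89 with quantile normalisation. Leaving out 1 library gave 190 to 746 higher and 52 to 270 lower, most without cKO 2. For a given gene, leaving out a library can only relax this criterion. Apart from genes that then fail the filter, a rise was thus fixed in advance. All these overlap alternatives were chosen after seeing the data.

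The genotype fit called 5 genes. It called 3 each with embryo sex, the Ttr side or log2(Ttr + 1) as a term, and without litter 1, and 3 to 6 with 1 library left out. Replicate numbers do not pair the animals: correlations of same-numbered deviations were 0.2688, 0.0837, -0.2662, 0.2921 and -0.1338. A replicate block gave 2 calls in place of the litter term and 3 beside it. The litter fit called 4356 genes, 2622 with the Ttr side as a term and 2508 to 4482 with 1 library left out, the fewest without WT 3.

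No marker passed between genotypes, and the sign of the difference turned positive in these fits. The side is a cut of Ttr itself, so as a term it takes up most of the Ttr difference by construction. With the Ttr side as a term the genotype difference was 0.0096 for Ttr, 0.6078 for Folr1, 0.1451 for Clic6, 0.2803 for Htr2c and 0.4317 for Otx2. With log2(Ttr + 1) it was 0.5979, 0.1155, 0.2704 and 0.4307 for the latter 4, and for Ttr, then its own covariate, no difference is defined. Folr1 was 0.0034 with a pseudocount of 5, 0.0841 without litter 3 and 0.1809 without litter 1. Htr2c was 0.1313 without litter 3 and Otx2 0.2541 without litter 1. With 1 library left out, the difference ranged from -2.8511 to -0.7989 for Ttr, -1.3992 to -0.347 for Clic6, -0.6149 to 0.2744 for Folr1, -0.3909 to 0.1313 for Htr2c and -0.5492 to 0.2269 for Otx2. Embryo sex as a term moved all 5 the other way, further below those ranges. The differences were then -4.1499 for Ttr, -2.141 for Clic6, -0.9878 for Folr1, -0.7228 for Htr2c and -0.9434 for Otx2. Sex was set by Xist above 20 TPM, which held for WT 3 (20.44), cKO 1, cKO 3 and cKO 4, so it was unevenly spread over the genotypes. The cause of the other changes was not tested. Depth is unknown and limits what low TPM values can show.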
